A study of Homo sapiens with 2 samples.

Results

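The genes described are 10 components and effectors of Notch signalling, namely the receptors NOTCH1, NOTCH2, NOTCH3 and NOTCH4, the ligands JAG1, JAG2 and DLL1, and the transcription factors HES1, HES6 and HEY1. They were chosen by platform gene symbol out of 19775 genes that had a probe set (a group of short oligonucleotides read together) with 1 symbol. The arrays carried 26 such probe sets for the 10 genes, and 1 further probe set that listed NOTCH2 beside other genes. RNA came from C4-2B-MDVR, a human prostate cancer line selected for enzalutamide resistance by long culture with the drug, and from its parent C4-2B, an enzalutamide-sensitive derivative of LNCaP. Enzalutamide is an antiandrogen. Both lines grew in the same medium with serum and antibiotics and were left untreated before total RNA was isolated, per the labels. Each line was measured on 1 Affymetrix array, so there is no spread between replicates, and no test, p-value or SD is given. The free-text description of the resistant sample names a docetaxel-resistant line, TaxR, and that of its parent calls C4-2B docetaxel-sensitive. The title, source and cell line labels, which name C4-2B-MDVR and C4-2B, were followed here, and a positive difference means a higher value on the array that carries the C4-2B-MDVR label.

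Notch receptors are membrane proteins that are cut when a ligand of the Jagged or Delta-like type on a neighbouring cell binds them. An ADAM protease and then the gamma-secretase complex release the intracellular part, which enters the nucleus and, with the DNA-binding protein RBPJ and a Mastermind-like coactivator, switches on genes such as HES1 and HEY1. HES and HEY proteins are basic helix-loop-helix repressors. In prostate epithelium the pathway is known for its part in the balance between progenitor and luminal cells, and HES1 is known elsewhere for holding back neuroendocrine differentiation.

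HES1 carries RBPJ recognition letters in its promoter, and NOTCH3 and HES6 were the members with the largest differences in either direction, so these 3 promoters are shown. They come from RefSeq on GRCh38.p14, which matched 8 of the 10 members, and run from 250 bases before to 50 bases after the gene's start, 5′ to 3′ on the gene's strand. Capitals mark TGGGAA, the RBPJ core, searched on both strands. The HES1 promoter lies at chr3:194135898-194136197 on the plus strand, NOTCH3 at chr19:15200946-15201245 and HES6 at chr2:238239989-238240288, both on the minus strand.
HES1: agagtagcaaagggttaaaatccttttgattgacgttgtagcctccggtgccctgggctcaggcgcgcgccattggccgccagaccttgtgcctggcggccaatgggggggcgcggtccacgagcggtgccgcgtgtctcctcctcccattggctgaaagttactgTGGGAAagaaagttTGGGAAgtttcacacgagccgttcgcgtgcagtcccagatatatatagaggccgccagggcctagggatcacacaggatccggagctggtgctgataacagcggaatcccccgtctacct
NOTCH3: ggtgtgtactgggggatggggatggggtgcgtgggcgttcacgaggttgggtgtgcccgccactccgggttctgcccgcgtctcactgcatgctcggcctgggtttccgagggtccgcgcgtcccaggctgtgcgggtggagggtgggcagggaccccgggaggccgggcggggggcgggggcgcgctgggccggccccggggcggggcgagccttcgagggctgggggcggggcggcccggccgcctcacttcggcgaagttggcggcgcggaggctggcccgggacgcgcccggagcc
HES6: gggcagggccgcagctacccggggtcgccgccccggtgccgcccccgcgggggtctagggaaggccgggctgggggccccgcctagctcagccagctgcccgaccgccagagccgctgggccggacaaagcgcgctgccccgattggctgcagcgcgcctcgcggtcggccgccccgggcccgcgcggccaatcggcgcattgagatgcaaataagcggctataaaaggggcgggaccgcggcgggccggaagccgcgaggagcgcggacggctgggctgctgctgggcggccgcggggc
The HES1 promoter held 2 RBPJ cores, whose first bases lay 84 and 70 bases before the start, and the other 7 member promoters held 0 in this window. Of 27305 promoters of the same length, 1 per gene, 24.3% held at least 1 such core. The letters CACNAG, the N box to which HES proteins bind, occurred in 5 of the 8 member promoters, against 38.0% of all promoters, and the HES1 promoter held 4 of them. These matches describe letters and are no evidence of binding.

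NOTCH3 and HES1 were higher in C4-2B-MDVR, HES6 and HEY1 were lower, and the other members above the detection floor differed by 1.23-fold or less. The floor is the median log2 intensity of each array, 5.44 for C4-2B-MDVR and 5.39 for C4-2B, and a gene counted as above it when its brighter array reached that array's floor. A gene with several probe sets was read from its brightest, by mean log2 over the arrays. DLL1 was under the floor, which left 9 members. Of these 9, 1 was 2-fold or more higher, against 3.17% of all 13437 genes above the floor, and 1 was 2-fold or more lower, against 3.50% of all genes. At 1.5-fold, 2 members were higher, against 8.26% of all genes, and 2 were lower, against 9.32% of all genes. At 3-fold, 0 members were higher, against 1.45% of all genes, and 0 were lower, against 1.20% of all genes. In a list of 9 genes a single call is a larger share (11.1%) than any of these backgrounds, so the counts do not set the members apart. The median difference of the 9 members was −0.22 on the log2 scale, and that of all genes above the floor was 0.04.

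**Figure D1:**
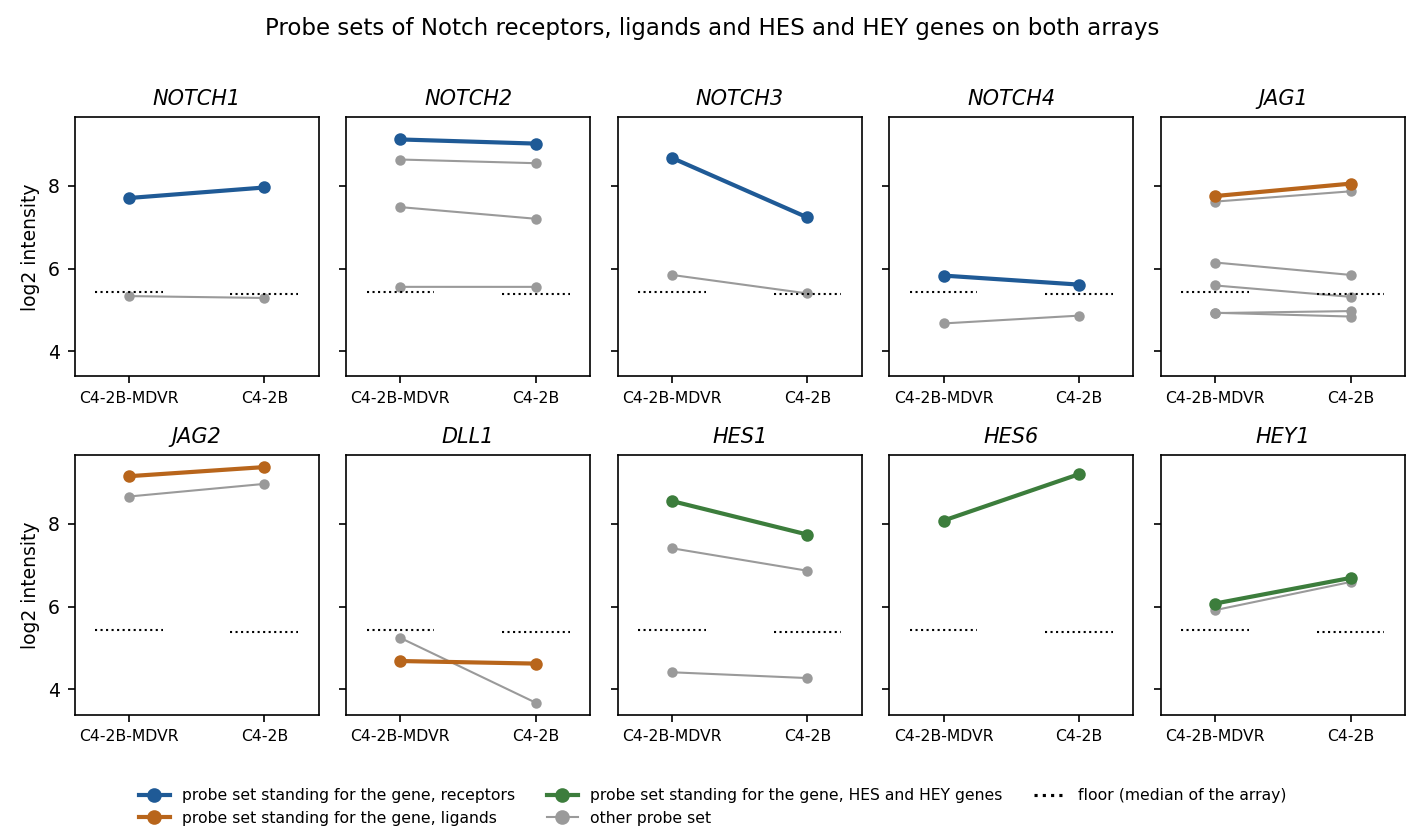
Log2 intensity (vertical axis) of each single-symbol probe set of the 10 genes on the C4-2B-MDVR and C4-2B arrays, 1 array each. Coloured lines are the probe sets that stand for a gene, grey lines the others, and dotted marks the floor of 5.44 for C4-2B-MDVR and 5.39 for C4-2B. The NOTCH3 and HES1 lines are higher on the C4-2B-MDVR side, the HES6 and HEY1 lines are lower there, and both DLL1 probe sets lie under the floor.

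Among the receptors, NOTCH3 stood out. Its intensity was 409 in C4-2B-MDVR and 151 in C4-2B, a log2 difference of 1.44 or 2.72-fold, and it ranked 231 from the highest difference among the 13437 genes. The second NOTCH3 probe set read 57.6 in C4-2B-MDVR and 42.2 in C4-2B, a log2 difference of 0.45. It was higher in C4-2B-MDVR too, but lay close to the floor intensities of 43.5 for C4-2B-MDVR and 41.9 for C4-2B. The gap of 0.99 between these probe sets is wide for this array: over 6261 genes with at least 2 probe sets above the floor, the 2 brightest differed by a median of 0.22 and by 0.70 at the 90th percentile. Of 404 such genes whose brightest probe set was beyond 2-fold, the second was beyond 2-fold the same way in 194 (48.0%) and had the same sign in 376.

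The other receptors were close to equal on both arrays. NOTCH1, often altered in leukaemia, had an intensity of 209 in C4-2B-MDVR and 249 in C4-2B (log2 difference −0.25), and its other probe set was under the floor. NOTCH2 had an intensity of 557 in C4-2B-MDVR and 520 in C4-2B (0.10). All 4 single-symbol probe sets of NOTCH2 had differences between 0.0004 and 0.28. One more probe set, which also lists the NOTCH2NL genes, partial copies of NOTCH2, read 587 in C4-2B-MDVR and 340 in C4-2B (0.79), and it cannot be assigned to NOTCH2 alone. NOTCH4, best known from blood vessels, read 56.9 in C4-2B-MDVR and 49.0 in C4-2B (0.22), little above the floor, and its other probe set was under it with a difference of −0.19.

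Of the ligands, JAG2 was slightly lower, JAG1 had no common direction over its probe sets and DLL1 was not detected. JAG2 read 570 in C4-2B-MDVR and 664 in C4-2B, a log2 difference of −0.22, and its second probe set differed by −0.31. JAG1, the ligand most studied in prostate cancer, read 216 in C4-2B-MDVR and 266 in C4-2B (−0.30). Its second brightest probe set differed by −0.25, but the next differed by 0.30, and 1 more, under the floor in C4-2B, by at least 0.20. DLL1 was under the floor on both arrays. Its probe sets read 25.8 and 37.9 in C4-2B-MDVR and, in the same order, 24.7 and 12.8 in C4-2B, values that have no order under the floor, and no fold is given.

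**Figure D2:**
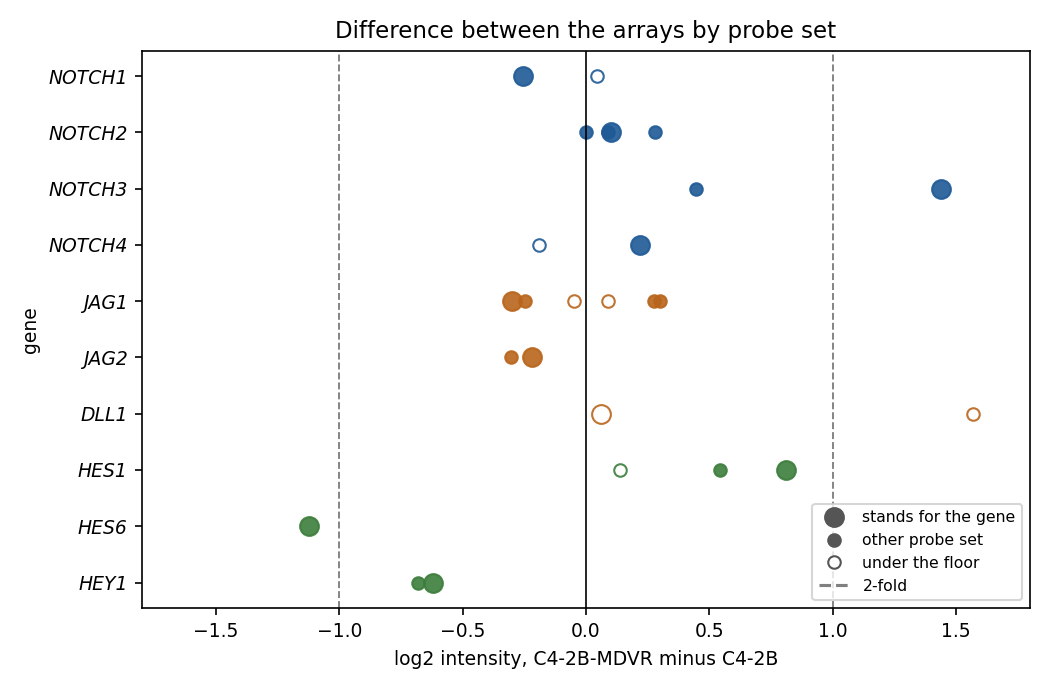
Log2 intensity in C4-2B-MDVR minus C4-2B (horizontal axis) for each single-symbol probe set, by gene. Large points stand for the gene, open points are under the floor and dashed lines mark 2-fold. NOTCH3 lies at 1.44 and 0.45, HES1 at 0.81 and 0.54, HES6 at −1.12 and HEY1 at −0.62 and −0.68.

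The HES and HEY genes had no common direction. HES1, the repressor most often used as a readout of Notch activity, read 376 in C4-2B-MDVR and 214 in C4-2B, a log2 difference of 0.81 or 1.75-fold. Its second probe set read 170 in C4-2B-MDVR and 117 in C4-2B (0.54), and the third was under the floor on both arrays. Both detected HES1 probe sets were thus higher in C4-2B-MDVR, with a gap of 0.27 between them. HEY1, the other classical target among the members, was lower. It read 67.5 in C4-2B-MDVR and 104 in C4-2B (−0.62, or 1.54-fold lower). The second HEY1 probe set read 60.4 in C4-2B-MDVR and 96.8 in C4-2B (−0.68), so the 2 probe sets differed by 0.06. In C4-2B-MDVR both HEY1 probe sets lay little above the floor intensity of 43.5.

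HES6 had the lowest difference of the members. It is a HES family protein that, in mouse, opposes HES1 and promotes neuronal differentiation, and it is not a classical Notch target. Its intensity was 271 in C4-2B-MDVR and 590 in C4-2B, a log2 difference of −1.12 or 2.18-fold lower, well above the floor on both arrays. The gene has 1 probe set here, so no second reading bears on it. Of 5 neuroendocrine markers, 3 were above the floor and 1 of these, the enolase ENO2, was beyond 2-fold. ENO2 was at least 5.52-fold higher in C4-2B-MDVR, with C4-2B below its floor. SYP was at least 1.11-fold lower in C4-2B-MDVR, where it was under the floor, and NCAM1 differed by 0.08. The summed intensity of the 5 was 362 in C4-2B-MDVR and 170 in C4-2B, or 131 in C4-2B-MDVR and 137 in C4-2B without ENO2, and the defining markers CHGA and INSM1 were under the floor on both arrays. Their part in the HES6 difference was not tested.

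**Figure D3:**
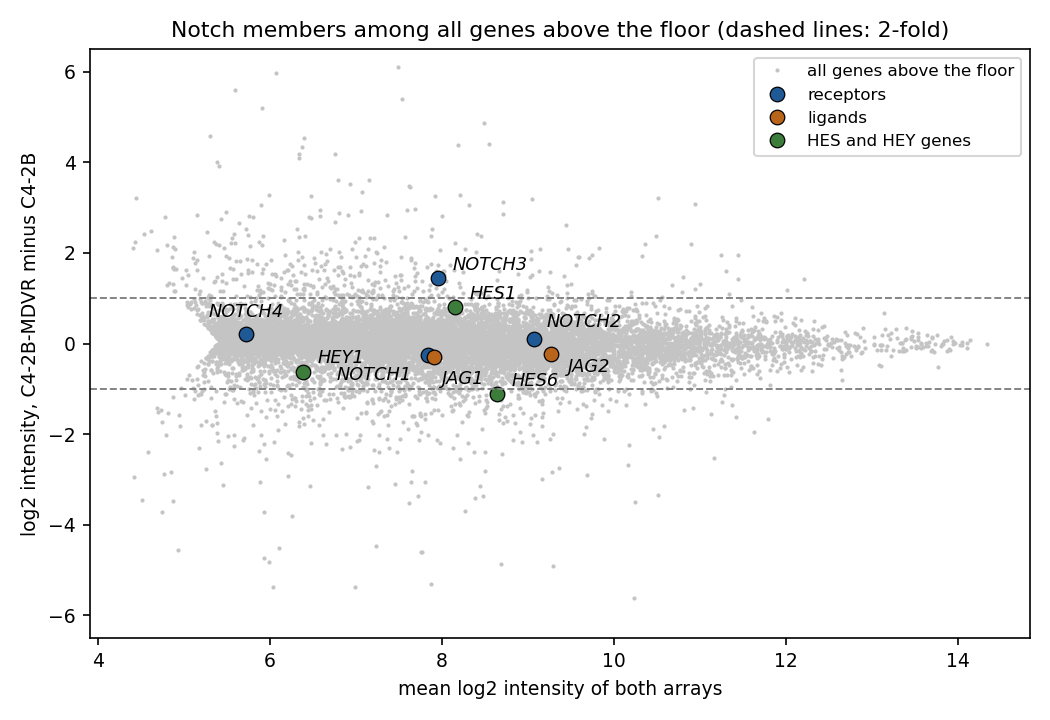
Log2 difference, C4-2B-MDVR minus C4-2B (vertical axis), against mean log2 intensity of both arrays (horizontal axis) for the 13437 genes above the floor in grey and the 9 members above it in colour. Dashed lines mark 2-fold. NOTCH3 at 1.44 and HES6 at −1.12 are the members outside these lines, and many other genes lie farther out.

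The rest of the pathway was read from a list of 75 further genes, ordered by role. Of these, 69 had a single-symbol probe set, and 61 reached the floor. Of the 61, 4 were 2-fold or more higher (6.56%, against 3.17% of all genes) and 1 was 2-fold or more lower (1.64%, against 3.50% of all genes). The median difference of the 61 was 0.14, against 0.04 for all genes above the floor. The other 6 listed genes were not analysed here.

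The core machinery differed little. All 8 proteases and gamma-secretase subunits above the floor lay between −0.21 and 0.48, with FURIN, which cuts receptors during their maturation, the highest at 144 in C4-2B-MDVR and 103 in C4-2B. The 5 glycosyltransferases that modify the receptors, led by POFUT1 (0.26), lay between 0.01 and 0.26. Of the other ligands 4 of 5 were above the floor, and DLL3, an inhibitory ligand, differed most (−0.29). Its brightest probe set read 227 in C4-2B-MDVR and 276 in C4-2B, while the second brightest differed by 0.28 the other way. In the transcription complex 0 of 9 genes were beyond 2-fold. The coactivator MAML3 differed most, with 94.8 in C4-2B-MDVR and 176 in C4-2B (−0.89), but its second probe set was at 0.04.

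Of the pathway's ubiquitin ligases, MIB1 was lower and DTX3 and DTX4 were higher by 2-fold or more. MIB1, which marks ligands for the endocytosis that activates signalling, read 156 in C4-2B-MDVR and 357 in C4-2B, a log2 difference of −1.20 or 2.29-fold lower. The other 2 MIB1 probe sets above the floor differed by −1.31 and −0.76, so all 3 were lower in C4-2B-MDVR. DTX4, a Deltex protein that acts on the receptors, read 167 in C4-2B-MDVR and 61.3 in C4-2B (1.44, 1 probe set). DTX3, a related protein, read 188 in C4-2B-MDVR and 61.1 in C4-2B (1.62), but 2 further detected probe sets gave 0.01 and 0.38, so only its brightest one was beyond 2-fold. Over the 9 receptor turnover genes above the floor, which include both, the median was 0.16.

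Among further effectors, NRARP, a feedback inhibitor induced by Notch, read 238 in C4-2B-MDVR and 411 in C4-2B (−0.79, or 1.73-fold lower). It was the largest difference among the 5 of 7 other HES, HEY and NRARP genes above the floor, 0 of which were beyond 2-fold. HES5 and HEY2 were under the floor on both arrays. NRARP and HEY1 were thus lower while HES1 was higher. TLE2, a Groucho-type corepressor that HES proteins recruit, had the largest difference of 10 corepressors when each was read from its brightest probe set, with 257 in C4-2B-MDVR and 149 in C4-2B (0.79), and 0.87 in its second probe set. Dimmer probe sets of the related TLE3 differed by more, 1.11 and 1.30.

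Genes that Notch is reported to regulate in other cell types, but which answer to many other signals, included the largest difference of the list. SOX9, a transcription factor of progenitor cells, read 233 in C4-2B-MDVR and 34.0 in C4-2B, where it was under the floor, and was at least 5.56-fold higher. Its second probe set, also under the floor in C4-2B, was at least 2.23-fold higher. CDKN1A, a cell cycle inhibitor, read 1260 in C4-2B-MDVR and 610 in C4-2B (1.05). It was just under 2-fold, at 0.99, when each array was centred on its median. The other 3 genes of this group were within 2-fold. Of 6 proneural factors, which HES proteins repress in the nervous system, 2 were above the floor and both were within 2-fold. ATOH1 read 47.6 in C4-2B-MDVR and 38.0 in C4-2B, where it was under the floor, and was at least 1.14-fold higher. ASCL2, above the floor on both arrays, was lower, with 155 in C4-2B-MDVR and 190 in C4-2B (−0.29).

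**Figure D4:**
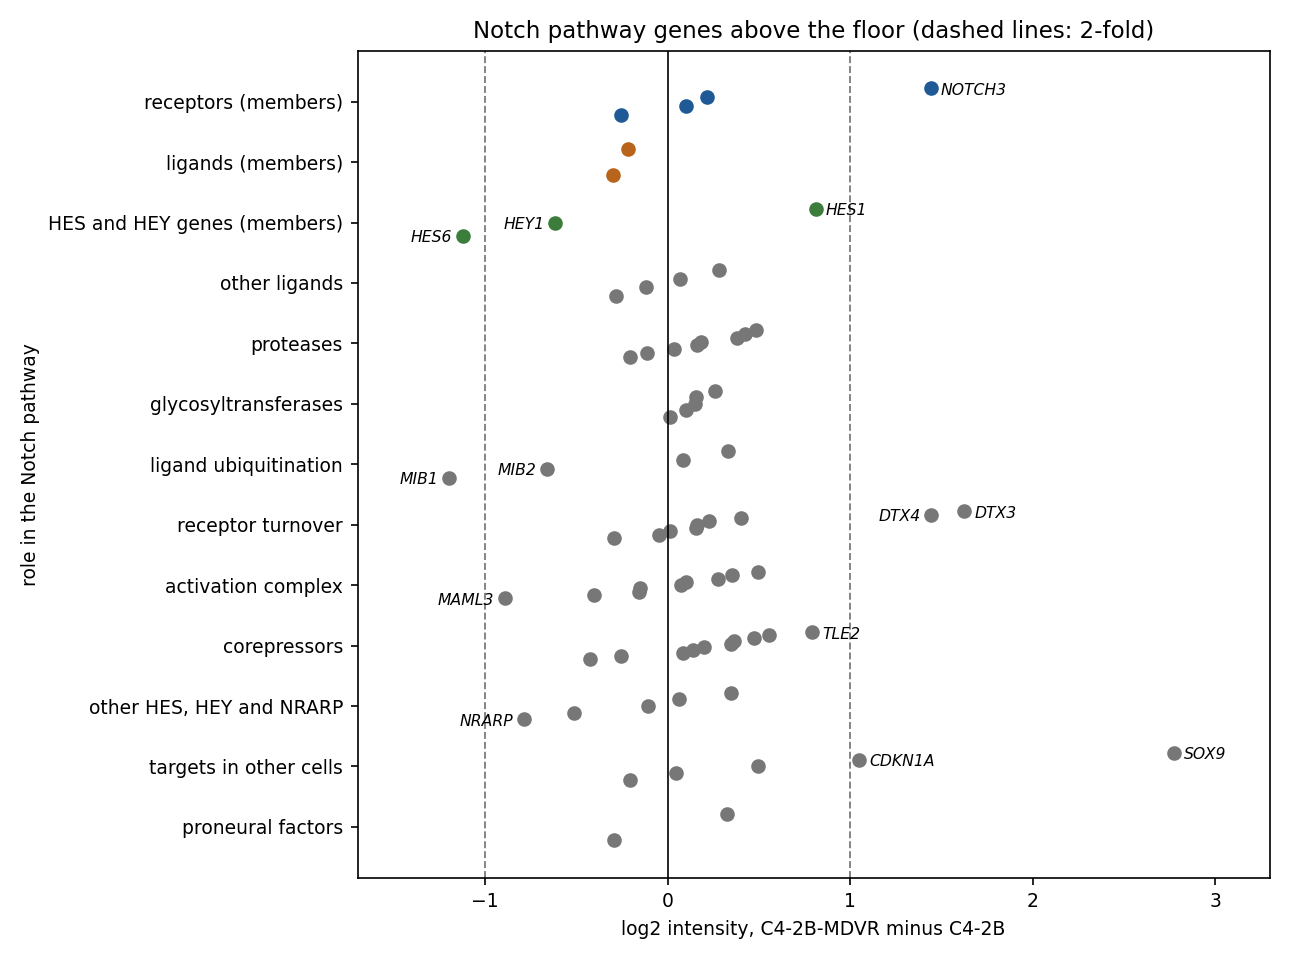
Log2 intensity in C4-2B-MDVR minus C4-2B (horizontal axis) for members and other Notch pathway genes above the floor, by role. Each point is a gene, names are given from 1.5-fold on and dashed lines mark 2-fold. Proteases and glycosyltransferases cluster near 0, MIB1 lies at −1.20, and DTX4 and DTX3 lie at 1.44 and 1.62. SOX9 is drawn at its measured difference, although the C4-2B value lay below the floor and 2.47 is its bound.

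The label of prostate epithelium was checked against markers. Of 9 luminal markers 7 had a value and all 7 were above the floor, with KRT18 at 4038 in C4-2B-MDVR and 4337 in C4-2B. KLK3, the prostate-specific antigen gene, was the 1 luminal marker beyond 2-fold, with 172 in C4-2B-MDVR and 8379 in C4-2B (−5.61). The summed intensity of the 7 was 10172 in C4-2B-MDVR and 18837 in C4-2B. KLK3 is part of both sums and made up most of the gap between them. Of 3 basal epithelial markers 2 had a value. KRT5 read 37.0 in C4-2B-MDVR, under the floor, and 43.5 in C4-2B, just above it, and KRT14 was under the floor on both arrays. Among markers of other cell types, 3 of 5 fibroblast, 2 of 5 endothelial and 1 of 3 leukocyte genes with a value were above the floor, and 0 of these were beyond 2-fold. COL1A2, CDH5 and PTPRC were under the floor on both arrays. Those above it were COL1A1, PDGFRB, DCN, PECAM1, VWF and CD3E. COL1A1 read 217 in C4-2B-MDVR and 255 in C4-2B, and CD3E read 73.6 in C4-2B-MDVR and 69.9 in C4-2B. The floor is an array median, so a value above it does not by itself show expression. Summed fibroblast marker intensity was 367 in C4-2B-MDVR and 401 in C4-2B, endothelial 199 in C4-2B-MDVR and 185 in C4-2B, and leukocyte 109 in C4-2B-MDVR and 105 in C4-2B. In bulk RNA, fewer cells expressing a gene and less RNA per cell cannot be told apart.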

How the data were processed

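Per the labels' protocols, RNA was amplified and labelled with biotin by a whole-transcript kit before hybridization, 1 Affymetrix array per line. The platform annotation, however, is that of an array type that reads the ends of transcripts. Whether this mismatch affected the values is unknown. The deposited table holds intensity per probe set, and its range shows that the scale is linear. How the authors corrected, normalized and summarized these values is not given in the sources used here. Log2 was taken of the deposited values and the arrays were subtracted. The table held 54675 probe sets and 0 further sample columns. The 2016 platform annotation gave 1 symbol to 41097 of them, several to 1801 and none to 11777. Symbols were checked by Entrez identifier against RefSeq of GRCh38.p14, with 41043 matched and 0 changed.

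With 1 array per line there is no test, and precision is limited by the number of arrays. The table used here has no detection calls, so the array median served as a floor, and "at least" is a bound against it. Named genes were all members, each listed pathway gene beyond 2-fold, and the largest difference in each role. Others were named after their values were seen. Members and lists were chosen with earlier results of these data known. Alternatives were median centring, quantile normalization, loess (span 0.3), averaging a gene's probe sets, probe sets other than those marked as shared (_s_at, _x_at), floors at the 25th or 75th percentile or none, values raised to the floor, 1.5-fold and 3-fold, and probe sets with several symbols. Python 3.11.15, numpy 2.4.6, pandas 2.3.3, statsmodels 0.14.6 and matplotlib 3.10.9 were used.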

Additional observations from a re-analysis of the deposited data

How the results depend on the processing

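No paired analysis was possible because each line has 1 array and the labels carry no replicate numbers. NOTCH3 stayed 2-fold or more higher under every scaling and floor tried, but when all probe sets of a gene were averaged it was at 0.94 and 0 members were 2-fold or more higher. HES6 lay between −1.18 and −1.05 under all alternatives that gave a difference. With a threshold of 1.5-fold, 2 members were higher and 2 lower, and of the 61 other pathway genes 5 were higher and 4 lower, against 8.26% and 9.32% of all genes. With 3-fold, 0 members were higher and 0 lower, and of the other pathway genes 2 were higher and 0 lower, against 1.45% and 1.20% of all genes. HES1 ranged from 0.50 to 0.88, but was under the floor where probe sets other than _s_at and _x_at came first. HEY1 ranged from −0.68 to −0.62, but was under the floor at the 75th percentile. JAG1 changed sign, to 0.01, with the mean of its probe sets, where DTX3 was at 0.54. The member median ranged from −0.27 with median centring to −0.05 with the mean of probe sets. Over the 9 members, 83 of 86 recomputed differences moved by less than 0.22, the median gap between probe sets of a gene. That gap comes from the same 2 arrays and is no spread between replicates. The other 3 were NOTCH3, JAG1 and HES1 with the mean of probe sets, which takes in those under the floor. A change of floor decides only whether a member is counted and leaves its difference as it was. Many of the 86 could therefore not move, and their number is no measure of stability. NOTCH4, the second NOTCH3 probe set and the C4-2B-MDVR readings of HEY1 lay near the floor, and having 1 array per line limits all values.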

Other observations

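Other pathway genes had probe sets that read differently, chosen here after their values were seen. RBPJ, the DNA-binding protein of the pathway, read 1454 in C4-2B-MDVR and 1031 in C4-2B in its brightest probe set, a log2 difference of 0.50, and 429 in C4-2B-MDVR and 451 in C4-2B in the second (−0.07). TLE3, a Groucho-type corepressor related to TLE2, was higher in C4-2B-MDVR in all 4 of its probe sets, by 0.56, 0.58, 1.11 and 1.30. The brighter 2 were within 2-fold and the dimmer 2 beyond it, so the rule of taking the brightest probe set kept TLE3 out of the genes counted as 2-fold higher. MIB2, a ligand ubiquitin ligase related to MIB1, had differences of −0.66, −0.34, 0.30 and 0.08 in its 4 probe sets above the floor, without a common direction.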
